A study of Mus musculus with 32 samples.

Results

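*Pparg*, *Cebpa*, *Cebpb*, *Fabp4*, *Aqp7*, *Cav1*, *Insr*, *Irs1*, *Irs2* and *Slc2a4* are 10 genes of adipocyte identity and of the insulin response. They were chosen by name, with earlier results of these data known. All 10 are present among the 24646 genes measured in each tissue, and none was filtered out. The values come from male mice aged 20 weeks that had received a high-fat diet (HFD) for 3 months and had no food in the night before collection. Whole-body *Gpr146* knockout (KO, -/-) mice, made with CRISPR/Cas9, were set against wild-type (WT, +/+) littermates, and *Gpr146* is lost in every tissue of the KO mice, not in fat alone. RNA of epididymal white fat (eWAT), inguinal white fat (iWAT), brown fat (BAT) and liver was measured on 32 arrays (Affymetrix Mouse Gene 2.1 ST), with 4 mice per genotype in each tissue. A value is the log2 signal of a whole transcript, and each tissue has a table of its own. Array medians were alike within a table and differed between tables (3.132 to 3.175 in eWAT and 3.651 to 3.726 in iWAT, for example), so levels were compared between mice of a tissue and not between tissues.

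In the KO mice, *Gpr146* lay between 3.63 and 4.63 in eWAT, 3.82 and 5.1 in iWAT, 3.82 and 4.69 in BAT and 4.26 and 4.63 in liver. The WT ranges were 5.32 to 6.05, 5.37 to 6.58, 5.1 to 5.6 and 6.17 to 6.32, so every KO mouse was below every WT mouse in each tissue. The titles of the 4 KO liver samples say WT, whereas their genotype, source name and description say KO, and the *Gpr146* values are those of KO mice. The adipocyte markers averaged 7.47 to 9.36 in the fat depots and 2.95 to 3.79 in liver, and the hepatocyte markers averaged 10.39 to 10.53 in liver and no more than 3.47 in fat. Several arrays carried other tissue. Averages of B and T lymphocyte markers were 5.58 to 8.04 in 4 iWAT arrays (WT 1, WT 2, KO 2 and KO 4) and 3.55 to 3.78 in the others. Skeletal muscle markers averaged 5.99 to 7.09 in 3 BAT arrays (WT 2, WT 3 and KO 2) and 2.75 to 3.41 in the other 5.

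Adipocytes acquire and keep their identity through a small circuit of transcription factors. C/EBPβ acts early and switches on PPARγ, a nuclear receptor that binds DNA with RXR, and C/EBPα, and these then maintain each other and turn on the genes of the mature fat cell. Among those genes are *Fabp4*, a cytoplasmic fatty acid carrier, *Aqp7*, the channel through which glycerol leaves the cell, and *Cav1*, the coat protein of the caveolae in which the insulin receptor resides. The insulin receptor (*Insr*) phosphorylates the docking proteins IRS1 and IRS2, which engage PI3K and AKT2 and bring the glucose transporter GLUT4 (*Slc2a4*) to the cell surface. In liver, C/EBPα, C/EBPβ, the receptor and the IRS proteins are also at work, whereas PPARγ and FABP4 are low in lean animals and rise when fat accumulates.

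Promoter sequences are shown for *Irs1* and *Irs2*, the docking protein genes whose changes were compared within arrays. They are also shown for *Pparg*, which encodes a receptor whose binding hexamer was among the motifs searched. RefSeq (GRCm38.p6) held promoters for 7 of the 10 genes, 11 start sites in all, and none was listed for *Fabp4*, *Insr* and *Slc2a4*. Each run is the 250 bases before a transcript start, 5′ to 3′ on the strand of the gene, and capitals mark matches to the motifs searched on both strands. *Irs1* is read from chr1:82291440-82291689 and *Irs2* from chr8:11008930-11009179, both on the minus strand, and the *Pparg* starts from chr6:115360894-115361143 and chr6:115362099-115362348 on the plus strand.
Irs1: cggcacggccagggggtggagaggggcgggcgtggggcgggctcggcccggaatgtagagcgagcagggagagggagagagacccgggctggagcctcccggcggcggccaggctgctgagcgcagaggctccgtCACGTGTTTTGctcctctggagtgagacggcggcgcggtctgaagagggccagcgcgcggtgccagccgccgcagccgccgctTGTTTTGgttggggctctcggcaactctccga
Irs2: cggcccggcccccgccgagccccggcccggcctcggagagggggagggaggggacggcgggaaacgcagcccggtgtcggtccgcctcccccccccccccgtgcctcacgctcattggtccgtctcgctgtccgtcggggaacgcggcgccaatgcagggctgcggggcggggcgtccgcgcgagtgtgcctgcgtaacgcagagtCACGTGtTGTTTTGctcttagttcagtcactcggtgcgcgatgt
Pparg, first start: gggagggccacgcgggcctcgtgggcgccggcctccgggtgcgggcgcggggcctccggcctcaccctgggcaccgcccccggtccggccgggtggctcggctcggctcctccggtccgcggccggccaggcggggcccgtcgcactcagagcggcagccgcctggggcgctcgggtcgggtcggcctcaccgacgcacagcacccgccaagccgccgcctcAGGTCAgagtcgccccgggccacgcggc
Pparg, second start: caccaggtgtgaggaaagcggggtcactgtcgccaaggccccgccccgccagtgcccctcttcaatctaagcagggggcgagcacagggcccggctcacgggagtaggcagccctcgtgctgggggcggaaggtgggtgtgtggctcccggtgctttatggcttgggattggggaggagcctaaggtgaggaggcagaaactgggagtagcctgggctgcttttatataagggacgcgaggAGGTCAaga

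In *Irs1*, an E-box (CACGTG), the site of basic helix-loop-helix factors, begins 115 bases before the start and shares its last bases with an insulin response sequence (TGTTTTG), the element named for insulin-repressed genes. A further insulin response sequence begins 32 bases before the start. *Irs2* holds the same pair, with the E-box 44 and the insulin response sequence 37 bases before the start. Of 32817 promoter windows of this length, 6.02% hold the E-box, 5.56% the insulin response sequence and 0.296% both. In 7 windows (0.021%) both begin within 10 bases of each other, a distance chosen after the *Irs1* and *Irs2* windows had been seen. The hexamer bound by PPARγ and RXR (AGGTCA) lies 28 and 9 bases before the *Pparg* starts shown, and *Aqp7* holds it at both of its starts, against 14.03% of all windows. The *Aqp7* windows overlap, and the match 223 bases before a start is the same site as that 49 bases before the other. The third *Pparg* start and the windows of *Cebpa*, *Cebpb* and *Cav1* held none of the motifs. No member window held the direct repeat of this hexamer (0.03% of all windows), the C/EBP palindrome TTGCGCAA (0.16%) or the FOXO site TGTTTAC (3.16%). The array gives 1 value per gene, so the starts of *Pparg* were not measured apart.

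In eWAT, 6 of the 10 genes were higher in KO mice. *Cebpa* rose 2.19-fold, *Slc2a4* 1.91-fold, *Insr* 1.68-fold, *Irs1* 1.56-fold, *Pparg* 1.53-fold and *Fabp4* 1.18-fold, while *Cebpb*, *Irs2*, *Aqp7* and *Cav1* did not pass the test. The test was limma over all genes of the tissue, with Benjamini-Hochberg adjustment and a threshold of 0.05. In this depot 15.2% of all genes passed it, 4.57% higher and 10.7% lower in KO mice. The 4.57% is the share of rises over all genes, bright and dim. The 10 genes were chosen with earlier results of these data known. All 10 also have a mean signal at or above the median of the genes. In a fit of such brighter genes alone, 3829 of 12323 passed in either direction, and the share of these that rose was not counted. In the same 6 genes all 4 KO values exceeded all 4 WT values, as they did in 8.63% of all genes (21.6% in either direction). The median log2 change of the 10 genes was 0.43, against 0.03 over all genes. In whole fat, fewer cells of a type and less RNA per cell cannot be told apart.

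**Figure D1:**
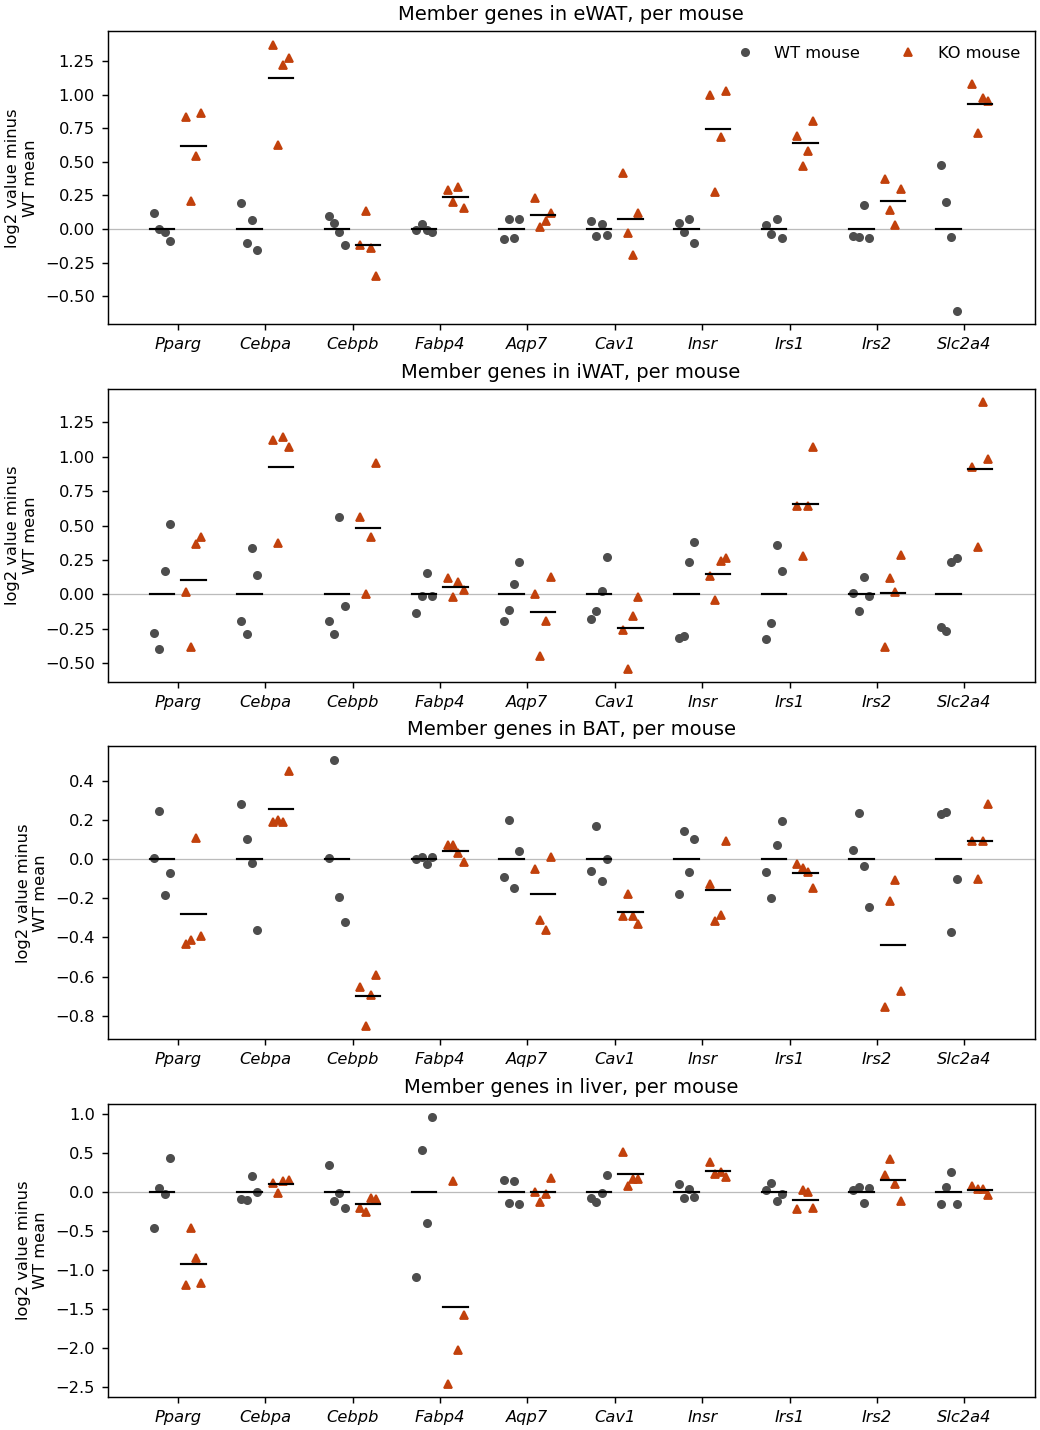
Log2 value of each of the 10 genes in each mouse, minus the mean of the 4 WT mice (y axis), in eWAT, iWAT, BAT and liver from top to bottom. Circles are WT and triangles KO mice, from replicate 1 at the left to 4 at the right, and bars are group means (n = 4). In eWAT the KO values of 6 genes lie wholly above the WT values, and in liver the KO values of Pparg lie wholly below.

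Of the transcription factors in eWAT, *Pparg* (chr6:115360879-115490404) measured 8.32, 8.2, 8.18 and 8.11 in WT mice 1 to 4 and 9.04, 8.41, 8.75 and 9.07 in KO mice 1 to 4. KO mouse 2 lay just above the highest WT mouse and the other KO mice well above it, and the mean rose from 8.2 ± 0.09 (SD, n = 4) to 8.82 ± 0.31, a log2 change of 0.61 (SE 0.14, adjusted p = 0.0203). *Cebpa* (chr7:35119293-35121928) measured 8.23, 7.93, 8.1 and 7.88 in WT mice and 9.41, 8.66, 9.26 and 9.31 in KO mice. Its groups did not overlap, with KO mouse 2 below the other KO mice. The *Cebpa* log2 change of 1.13 (SE 0.16, adjusted p = 0.00823) was the largest among the 10 genes in this depot. *Cebpb* (chr2:167688915-167690432) measured 5.69, 5.64, 5.57 and 5.47 in WT mice and 5.47, 5.73, 5.45 and 5.24 in KO mice. Its groups overlapped, and the log2 change of -0.12 (95% CI -0.36 to 0.13) had an adjusted p of 0.512. Within the same arrays, *Cebpa* changed by 1.24 more than *Cebpb* on the log2 scale, with no overlap of the groups (two-sided exact permutation p = 0.0286, the smallest that 4 mice against 4 allow, and 0.0571 after adjustment over the 8 comparisons of this kind).

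Among the genes of the mature fat cell, *Fabp4* (chr3:10204342-10208616) measured 11.24, 11.29, 11.24 and 11.23 in WT mice and 11.54, 11.45, 11.56 and 11.41 in KO mice. The groups were apart but the change was small, 0.24 (SE 0.07, adjusted p = 0.0448), for a gene whose signal lies near the top of the scale, where the brightest value of any gene was 12.06. *Aqp7* (chr4:41033074-41048237) measured 9.45, 9.6, 9.46 and 9.6 in WT and 9.76, 9.54, 9.59 and 9.65 in KO mice, and its log2 change of 0.11 had a 95% CI of -0.07 to 0.28. *Cav1* (chr6:17306335-17341328) measured 8.35, 8.24, 8.33 and 8.25 in WT and 8.71, 8.26, 8.1 and 8.41 in KO mice. The KO mice lay on both sides of the WT mice, and the 95% CI of the *Cav1* change of 0.08 ran from -0.2 to 0.35.

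In the insulin pathway, *Insr* (chr8:3150922-3279649) measured 7.25, 7.18, 7.28 and 7.1 in WT mice and 8.2, 7.48, 7.89 and 8.23 in KO mice. Every KO mouse exceeded every WT mouse, KO mouse 2 by the least, and the log2 change was 0.75 (SE 0.16, adjusted p = 0.0155). *Irs1* (chr1:82233105-82291439) measured 3.69, 3.62, 3.73 and 3.59 in WT mice and 4.35, 4.13, 4.24 and 4.46 in KO mice. Spread within each group was small, and the change of 0.64 (SE 0.09) had the smallest adjusted p of the 10 genes, 0.00782. *Irs2* (chr8:10984681-11008929) measured 4.54, 4.53, 4.77 and 4.52 in WT mice and 4.96, 4.73, 4.62 and 4.89 in KO mice. WT mouse 3 lay among the KO mice, and the change of 0.21 (95% CI -0.01 to 0.44) did not pass, with an adjusted p of 0.191. After quantile normalization the *Irs2* change was 0.34 and passed (adjusted p = 0.0404). *Irs1* changed by 0.43 more than *Irs2* within the same arrays, with no overlap of the groups (two-sided exact permutation p = 0.0286, adjusted 0.0571). *Slc2a4* (chr11:69942286-69948216) measured 5.91, 5.63, 5.37 and 4.82 in WT mice and 6.51, 6.15, 6.41 and 6.39 in KO mice. The WT mice were spread over more than a log2 unit and the KO mice lay close together above them, with a change of 0.94 (SE 0.2, adjusted p = 0.0177).

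**Figure D2:**
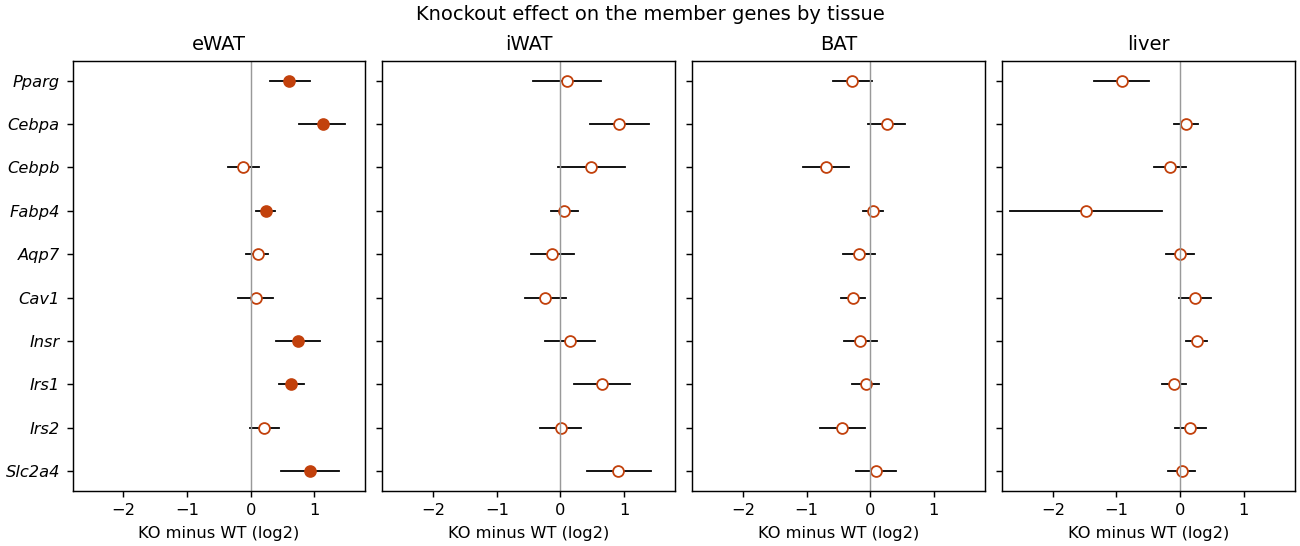
Log2 change, KO minus WT, of each of the 10 genes (rows) in eWAT, iWAT, BAT and liver, with its 95% confidence interval from limma (n = 4 mice per genotype). Filled circles passed an adjusted p of 0.05. The 6 filled circles are all in eWAT, and the widest interval is that of Fabp4 in liver, from -2.67 to -0.28.

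Markers of other cells moved with these genes in eWAT. All 9 macrophage markers fell in KO mice, from 0.91 on the log2 scale for *Lyz2* to 3.12 for *Trem2*, and their mean was 8.37 to 8.62 in WT mice and 5.42, 8.02, 6.3 and 5.69 in KO mice 1 to 4. KO mouse 2, closest to WT in macrophage signal, was also the lowest KO mouse for *Pparg*, *Cebpa*, *Slc2a4*, *Insr* and *Irs1*. Of 9 adipocyte markers, 6 rose and 1 (*Lep*) fell, with a median change of 0.51 and a mean of 7.47 to 7.79 in WT and 8.04 to 8.28 in KO mice. Adipose progenitor markers fell in 4 of 8 and mesothelial markers in 2 of 6. With the macrophage mean as a covariate, a fit chosen after seeing the data, none of the 10 genes passed and 1 gene of all genes did. In it the log2 changes were 0.08 for *Pparg*, 0.15 for *Insr*, 0.21 for *Fabp4*, 0.43 for *Irs1*, 0.54 for *Cebpa* and 0.66 for *Slc2a4*. The unadjusted limma p was 0.0117 for *Irs1*, 0.0127 for *Cebpa* and 0.0899 for *Slc2a4*. The genotypes did not overlap in macrophage signal, so that effects of genotype and of macrophage content cannot be told apart in this depot.

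**Figure D3:**
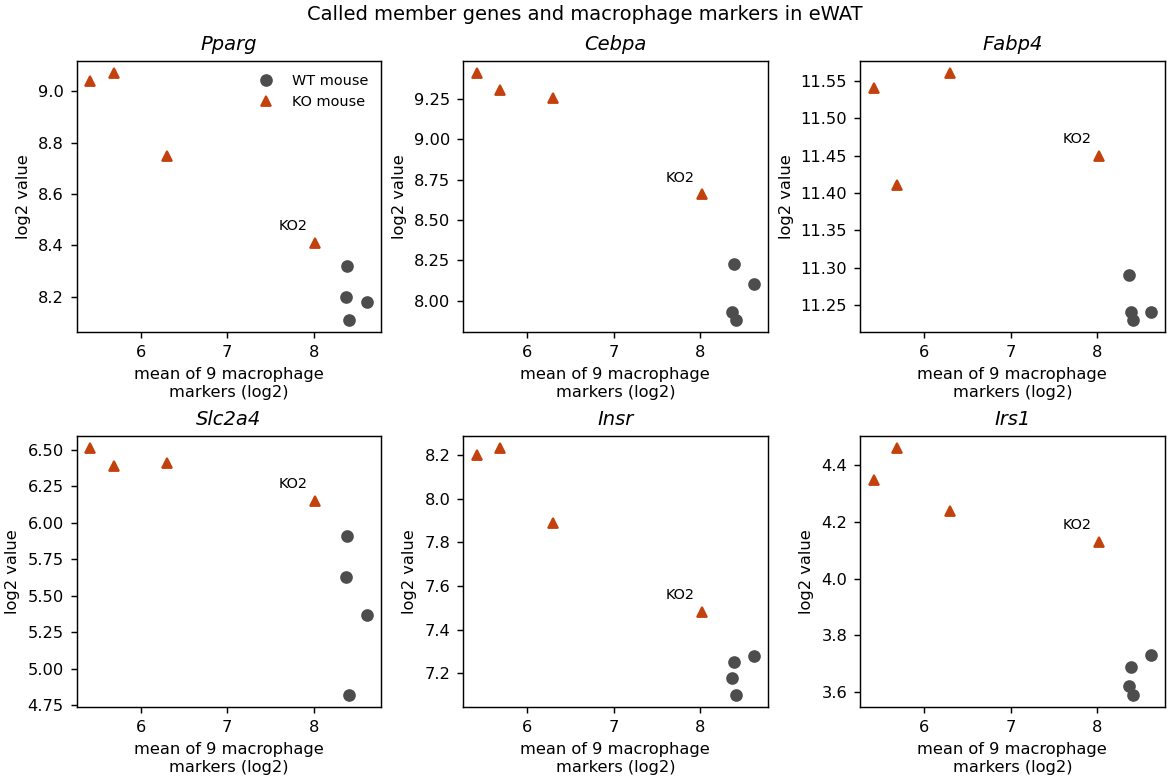
Log2 value of the 6 genes that rose in eWAT (y axis, a scale of its own for each gene) against the mean log2 value of 9 macrophage markers in the same array (x axis). Circles are WT and triangles KO mice. KO mouse 2, labelled, sits at 8.02 on the x axis, next to the WT mice, and has the lowest KO value of Pparg, Cebpa, Slc2a4, Insr and Irs1.

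The eWAT calls depended on the test and differed in how far they rested on single mice. By the methods' t-test with adjustment over all genes none of the 6 passed, with adjusted p of 0.0519 for *Irs1*, 0.0617 for *Fabp4*, 0.0628 for *Cebpa*, 0.0746 for *Insr*, 0.082 for *Pparg* and 0.0824 for *Slc2a4*. In limma, *Cebpa*, *Irs1* and *Slc2a4* passed with any 1 array left out. *Pparg* did not pass without WT mouse 2 (adjusted p = 0.061), WT mouse 3 (0.0544), WT mouse 4 (0.0634), KO mouse 1 (0.0545) or KO mouse 4 (0.0544), and *Insr* did not without WT mouse 2 (0.0506) or WT mouse 4 (0.0506). Without either of these 2 WT mice, 3 of the 10 genes passed. *Fabp4* passed without KO mouse 2 (0.0454) and with no other array left out, the adjusted p then being 0.058 to 0.114, nor after quantile normalization (log2 change 0.09, 0.445) or with mouse number as a block (0.102). Without KO mouse 2 all 6 genes passed, with log2 changes of 0.75 for *Pparg*, 1.3 for *Cebpa* and 0.9 for *Insr*.

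The partners of these genes in eWAT were read from lists by role. Over all genes of this depot 4.57% rose and 10.7% fell. Signals were above the median for 18 of the 21 transcription factors and cofactors and all 26 mature adipocyte and PPARγ target genes. The same held for all 33 genes downstream of the IRS proteins and 19 of the 21 inhibitors. Of 21 adipocyte transcription factors and cofactors, 3 rose and none fell: *Klf15*, a late adipogenic factor (log2 change 1.95, adjusted p = 0.00813), *Ppara*, the receptor of fatty acid oxidation (0.49, 0.0205), and *Stat5a* (0.37, 0.0299). Of 26 mature adipocyte and PPARγ target genes, 12 rose and 3 fell, with a median change of 0.32. The smallest p-values were those of *Adrb3*, the β3-adrenergic receptor (2.24, 0.00823), *Gpam*, which starts triglyceride synthesis (1.72, 0.00871), and *Cfd*, adipsin (2.32, 0.00877), and the 3 that fell were *Fabp5*, *Lep* and *Gyk*. Downstream of the IRS proteins 6 of 33 genes rose and 2 fell (*Tbc1d1* and *Grb2*), with a median of 0.05. *Eif4ebp1*, a translation repressor under mTOR (0.71, 0.00924), *Pde3b*, through which insulin curbs lipolysis (1.06, 0.00971), and *Akt2*, the AKT of glucose uptake (0.62, 0.0214), led the rises.

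None of 21 inhibitors of insulin signalling rose and 6 fell, with a median of -0.05, in a depot where 10.7% of all genes fell. *Enpp1*, which binds the receptor (-1.26, adjusted p = 0.00828), *Prkcd*, a serine kinase (-1.48, 0.0136), and *Inpp5d*, a lipid phosphatase of blood cells (-1.59, 0.0139), had the smallest p-values, and the macrophage markers fell in the same arrays. Among 11 receptors and adaptors akin to *Insr* and the *Irs* genes, *Gab1* (-0.4, 0.0257) and *Dok1* (-0.57, 0.0266) fell. Of 7 other hexose transporters, *Slc2a1*, the basal transporter GLUT1, fell (-0.45, 0.0178) and *Slc2a12*, an insulin-sensitive relative of GLUT4, rose (0.46, 0.0405). Of 9 other caveola proteins, *Sdpr* (now *Cavin2*; 0.57, 0.0105) and *Murc* (*Cavin4*; 0.64, 0.0167) rose and *Pacsin2* fell (-0.57, 0.0167). Of 6 other fatty acid binding proteins, *Fabp5* (-1.18, 0.0105) and *Fabp7* (-1.27, 0.0157) fell, opposite in sign to *Fabp4*. None of 7 other aquaporins passed, with *Aqp4* closest (0.14, 0.326).

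In iWAT no member passed limma, and 3 had an unadjusted p below 0.05, as many as by the methods' t-test without adjustment. Of all 24646 genes, 3803 had an unadjusted limma p that low. This count over all genes was made with limma alone, so the other member count has no background. After adjustment no gene in the table passed (0%), and the smallest adjusted p was 0.221. *Cebpa* measured 8.26, 8.16, 8.79 and 8.59 in WT mice and 9.57, 8.82, 9.59 and 9.52 in KO mice. All KO mice exceeded all WT mice, KO mouse 2 only just, with a log2 difference of 0.92 (SE 0.2, adjusted p = 0.221). *Slc2a4* measured 5.71, 5.68, 6.18 and 6.21 in WT mice and 6.87, 6.29, 7.34 and 6.93 in KO mice, again apart, by 0.91 (SE 0.22, adjusted p = 0.221). These 2 genes were the members whose KO values all exceeded the WT values, as did those of 4.29% of all genes (8.15% were apart in either direction). *Irs1* measured 4.34, 4.45, 5.02 and 4.83 in WT mice and 5.3, 4.94, 5.3 and 5.73 in KO mice. KO mouse 2 fell below WT mouse 3, and the difference was 0.66 (SE 0.2, adjusted p = 0.233).

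The lowest iWAT values of these 3 genes in each genotype came from arrays rich in lymphocyte markers (WT 1 and WT 2, and KO 2). KO 4, with a lymphocyte mean of 5.58, did not follow this, and had the highest *Irs1* value of all (5.73). With the lymphocyte mean as a covariate, chosen after seeing the data, *Cebpa* passed (0.83, adjusted p = 0.0423), one of 35 genes in all, and *Slc2a4* just missed (0.81, 0.0514). With the 4 arrays richest in these markers left out, 2 mice per genotype remained, 916 genes passed, and *Cebpa* (0.89, 0.0316) did while *Slc2a4* (0.91, 0.0507) and *Irs1* (0.38, 0.193) did not. Without KO mouse 2 alone, both *Cebpa* (1.11, 0.0398) and *Slc2a4* (1.1, 0.044) passed, and how many of all genes passed in that fit was not counted. Macrophage markers also ran lower in KO iWAT, all 9 below 0 in log2 difference and none past the threshold, with means of 6.05 to 7.02 in WT and 5.31 to 6.2 in KO mice, and their part in these differences was not tested.

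*Pparg* in iWAT measured 8.38, 8.27, 8.83 and 9.17 in WT mice and 8.68, 8.28, 9.03 and 9.08 in KO mice. The groups overlapped throughout, and the difference of 0.1 had a 95% CI of -0.43 to 0.64. *Cebpb* lay 0.48 higher in KO mice (95% CI -0.04 to 1.01), between 4.96 and 5.81 in WT and 5.25 and 6.2 in KO mice. The other differences were 0.15 for *Insr* (95% CI -0.24 to 0.54), 0.06 for *Fabp4*, 0.01 for *Irs2*, -0.13 for *Aqp7* and -0.24 for *Cav1*, with adjusted p from 0.417 to 0.979. In the lists no gene passed. The smallest p-values belonged to *Srebf1*, a lipogenic factor (1.02), *Lep*, leptin (-0.78), *Gys2*, a glycogen synthase (1.34), and *Prkcdbp*, now *Cavin3* (-0.58), with adjusted p of 0.221 to 0.236. In the other lists they belonged to *Inppl1* (0.5), *Sh2b2* (0.4), *Slc2a5* (0.2), *Aqp9* (0.16) and *Fabp6* (0.57), with adjusted p of 0.254 to 0.417.

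In BAT 7 of the 10 genes lay lower in KO mice, none passing limma, in a tissue where 0.0284% of all genes passed. By unadjusted p below 0.05 there were 3 members in limma and 2 in the methods' t-test. In limma 3127 of all 24646 genes had a p that low. All genes were counted in limma alone, so the other member count has no background. *Cebpb* measured 7.26, 7.76, 7.06 and 6.93 in WT mice and 6.6, 6.4, 6.56 and 6.66 in KO mice. Every KO mouse was below every WT mouse, by 0.7 on average (log2 difference -0.7, SE 0.16, adjusted p = 0.136). *Cav1* measured 7.36, 7.59, 7.31 and 7.42 in WT mice and 7.13, 7.24, 7.13 and 7.09 in KO mice, also apart (-0.27, SE 0.09, adjusted p = 0.223). These 2 were the members wholly below WT, as were 3.92% of all genes, and 7.23% of all genes were apart in either direction. *Irs2* measured 4.44, 4.63, 4.36 and 4.15 in WT mice and 3.64, 4.18, 4.29 and 3.72 in KO mice, with overlap and a difference of -0.44 (SE 0.16, adjusted p = 0.29).

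*Pparg* in BAT measured 9.19, 9.43, 9 and 9.11 in WT mice and 8.75, 8.77, 9.29 and 8.79 in KO mice. KO mouse 3 lay among the WT mice and the other 3 below them, with a difference of -0.28 (95% CI -0.59 to 0.02). *Cebpa* lay on the other side, 0.26 higher (95% CI -0.04 to 0.55), and within the same arrays it changed by 0.95 more than *Cebpb*, with no overlap of the groups (two-sided exact permutation p = 0.0286, adjusted 0.0571). In iWAT and liver *Cebpa* changed by 0.44 and 0.26 more than *Cebpb*, with overlap (two-sided exact permutation p = 0.0571 in each). *Slc2a4* (0.09), *Fabp4* (0.04), *Irs1* (-0.07), *Insr* (-0.16) and *Aqp7* (-0.18) had adjusted p from 0.578 to 0.864. Muscle markers were high in 2 WT and 1 KO array. With their mean as a covariate, *Cebpb* differed by -0.69 and *Cav1* by -0.26, and without the 3 arrays by -0.49 and -0.27, none passing.

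Among the lists in BAT, *Agpat2*, an acyltransferase of triglyceride synthesis, fell (-0.6, adjusted p = 0.0483), and no other list gene passed. In the transcription factor list 20 of 21 genes lay lower, none passing, with a median of -0.26 against 0 over all genes and *Ppargc1a*, the coactivator of brown fat, closest (-1.14, 0.13). The PPARγ target list had a median of -0.2. In other lists the smallest p-values were those of *Trib1* (-0.76, 0.159), *Dok4* (-0.4, 0.168), *Slc2a5* (0.93, 0.168), *Aqp1* (-0.36, 0.382), *Prkcdbp* (-0.27, 0.412) and *Fabp3* (0.18, 0.519).

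In liver no member passed limma, where 0.661% of all genes did, and by unadjusted p below 0.05 there were 3 in limma and 2 in the methods' t-test. Of all 24646 genes, 3271 had an unadjusted limma p below 0.05. Here too all genes were counted in limma alone, and the other member count has no background. *Pparg* came closest of the members. It measured 5.49, 6, 5.92 and 6.38 in WT livers and 4.76, 5.48, 5.1 and 4.78 in KO livers, every KO liver being below every WT liver. The log2 difference was -0.92 (SE 0.19, 95% CI -1.35 to -0.49, adjusted p = 0.0624). It passed without WT mouse 1 (-1.07, 0.0404), without KO mouse 2 (-1.07, 0.0219) and when the dimmer genes were left out (0.0494), and the adjusted p ranged from 0.0511 to 0.178 in the other limma fits. *Fabp4* measured 3.43, 5.06, 4.12 and 5.48 in WT livers and 2.07, 4.66, 2.5 and 2.95 in KO livers, a difference of -1.48 with a wide spread (SE 0.54, adjusted p = 0.267). KO mouse 2, the KO liver highest in *Fabp4*, was also the one highest in *Pparg*.

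*Insr* in liver went the other way, with 7.44, 7.26, 7.37 and 7.27 in WT and 7.72, 7.56, 7.59 and 7.53 in KO livers. The groups were narrow and apart (0.27, SE 0.08, 95% CI 0.1 to 0.43, adjusted p = 0.163). *Pparg* and *Insr* were the members that were apart, against 7.78% of all genes. *Cebpa* differed by 0.1, *Cebpb* by -0.16, *Irs1* by -0.1 and *Irs2* by 0.16, with adjusted p of 0.584 to 0.685 and overlapping groups. Within the arrays *Irs1* changed by -0.26 relative to *Irs2* (two-sided exact permutation p = 0.0286, adjusted 0.0571), the reverse of the sign in eWAT. The groups were barely apart, with *Irs1* minus *Irs2* at -0.24 to -0.13 in WT and -0.61 to -0.25 in KO livers. In iWAT *Irs1* changed by 0.65 relative to *Irs2* and in BAT by 0.36, with overlap (two-sided exact permutation p = 0.0857 and 0.171). *Slc2a4*, *Aqp7* and *Cav1* differed by 0.03, 0 and 0.23, and the signals of *Slc2a4* (2.63 to 3.04) and *Cav1* (2.18 to 2.82) were below the median of the genes of the table.

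Of the 26 mature adipocyte and PPARγ target genes in liver, 4 fell and 1 rose. *Cd36*, a fatty acid transporter (-1.74, adjusted p = 0.0144), *Plin4*, a lipid droplet coat protein (-1.55, 0.0144), and *Cfd* (-1.12, 0.0242) had the smallest p-values. *Cidec* fell as well (-2.08, 0.0387) and *Adrb3* rose (0.65, 0.0427). *Aqp1*, a water channel of vessels, fell among the aquaporins (-1.23, 0.00592), in arrays in which 3 of 9 endothelial markers also fell. In the remaining lists none passed, and the smallest p-values were those of *Ddit3* (-0.54, 0.0508), *Fabp7* (-0.78, 0.14), *Pik3r1* (-0.28, 0.161), *Ptpn1* (-0.24, 0.233), *Slc2a12* (0.29, 0.257), *Sdpr* (-0.33, 0.257) and *Gab2* (-0.18, 0.471). Endothelial markers averaged 4 to 4.08 in WT and 3.22 to 3.82 in KO livers, stellate cell markers 4.28 to 4.59 and 3.59 to 4.14, and macrophage markers 3.99 to 4.41 and 3.51 to 4.17. Their part in the liver differences was not tested.

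Whether the KO changed a gene more in one tissue than in another was tested on the difference between the values of 2 tissues with the same mouse number, by limma over all genes, although the labels do not say that a number is the same animal in each tissue. Without this pairing 4 genes passed between eWAT and BAT (*Slc2a4* did not, adjusted p = 0.0718) and 4 between eWAT and liver. The share of all genes passing was not counted without the pairing. Between eWAT and BAT the KO effect differed for 5 of the 10 genes, against 6.93% of all genes. The effect in eWAT exceeded that in BAT by 0.9 for *Pparg* (SE 0.2, adjusted p = 0.0262), 0.87 for *Cebpa* (SE 0.17, 0.0167), 0.85 for *Slc2a4* (SE 0.18, 0.0213), 0.9 for *Insr* (SE 0.15, 0.0111) and 0.71 for *Irs1* (SE 0.14, 0.0163). Without WT mouse 2, KO mouse 1 or WT mouse 4 the count was 2, 2 and 3, and the *Insr* difference passed with any mouse left out. The *Pparg* difference did not pass without WT mouse 1, 2 or 4 or KO mouse 1 or 4 (adjusted p from 0.0559 to 0.0856). *Cebpb*, which lay lower in BAT, gave 0.58 (adjusted p = 0.104) and *Irs2* 0.65 (0.124).

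Between eWAT and liver the KO effect differed for 4 of the 10 genes, against 8.37% of all genes. The largest of these was that of *Pparg*, higher in KO eWAT and lower in KO liver, at 1.53 (SE 0.31, adjusted p = 0.0148), and it passed with any 1 mouse left out. The others were *Cebpa* (1.03, SE 0.16, 0.00698), *Slc2a4* (0.91, SE 0.21, 0.0268) and *Irs1* (0.74, SE 0.15, 0.0146), and without WT mouse 2 the count was 2. The *Slc2a4* difference did not pass in 6 of the 8 such fits. *Fabp4* gave 1.72 with a wide interval (95% CI 0.48 to 2.95, adjusted p = 0.0919). *Cebpb*, *Irs2* and *Aqp7* differed by 0.04, 0.05 and 0.1.

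**Figure D4:**
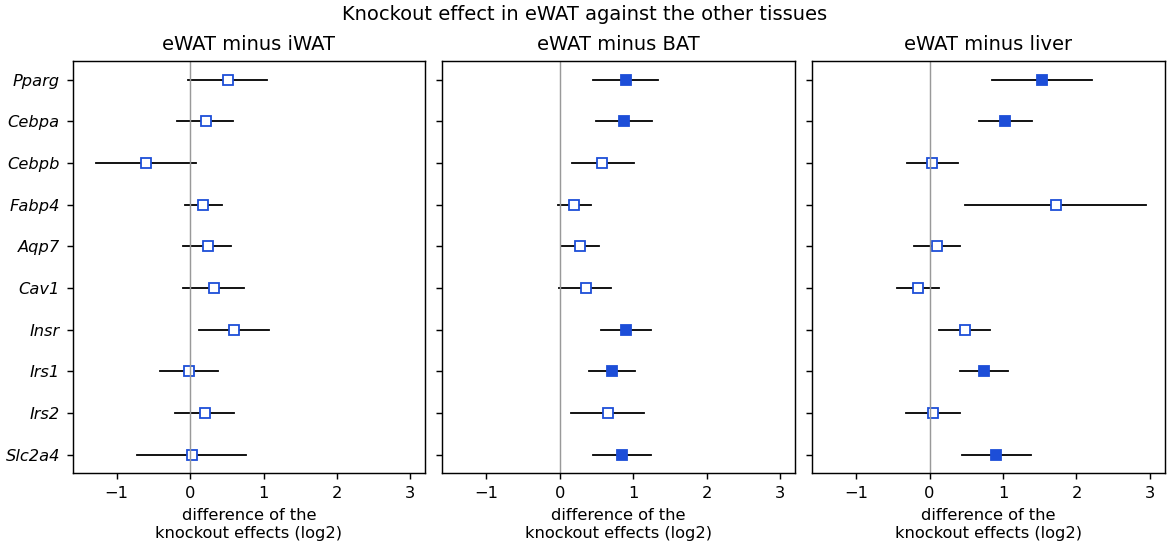
Difference between the KO effect in eWAT and that in iWAT, BAT or liver (x axis, log2) for each of the 10 genes (rows), with its 95% confidence interval from limma on per-mouse differences. Filled squares passed an adjusted p of 0.05. There are none against iWAT, 5 against BAT and 4 against liver.

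The 2 white depots were not told apart by this test, in which 0% of all genes passed. The effects on *Slc2a4* (0.94 in eWAT and 0.91 in iWAT), *Irs1* (0.64 and 0.66) and *Cebpa* (1.13 and 0.92) differed by 0.02 (95% CI -0.72 to 0.76), -0.02 (-0.41 to 0.38) and 0.21 (-0.18 to 0.59). For *Insr* (0.75 and 0.15) the difference was 0.6 (95% CI 0.12 to 1.07, adjusted p = 0.334), and for *Pparg* (0.61 and 0.1) it was 0.51 (-0.03 to 1.05, adjusted p = 0.488). Between iWAT and BAT, where again 0% of all genes passed, *Cebpb* had the smallest p (difference 1.18, adjusted p = 0.296). No member passed between iWAT and liver (0.00406% of all genes) or between BAT and liver (0.0893%), and *Cebpa* (0.83, 0.159) and *Irs2* (-0.6, 0.266) came closest.

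To see which genes moved together from mouse to mouse, each value was taken as the deviation from the mean of its tissue and genotype and correlated over the 32 arrays, as a description in which arrays of a tissue share cell composition and normalization. Of 45 pairs of members, 39 had r above 0 and 12 above 0.5, with a median of 0.38. *Cebpa* and *Slc2a4* were closest (r = 0.72), with 0.58 in eWAT, 0.91 in iWAT, 0.6 in BAT and 0.58 in liver. *Pparg* and *Insr* followed each other in eWAT (0.97) and iWAT (0.92) but not in BAT (-0.11) or liver (-0.66). In eWAT both spread little in WT mice (SD 0.09 and 0.08) and more in KO mice (0.31 and 0.35), where KO mouse 2 was lowest. In iWAT both were lowest in the lymphocyte-rich arrays WT 1, WT 2 and KO 2, and KO 4 did not follow this. The part of cell content in these correlations was not tested. *Pparg* and *Fabp4* followed each other in liver (0.88) and not in eWAT (0). *Irs1* and *Irs2* had an r of 0.2, and *Fabp4* and *Aqp7* the lowest, -0.29. For the latter pair r was 0.25 in eWAT, 0.49 in iWAT, -0.11 in BAT and -0.71 in liver. Deviations were not scaled, so a gene counts most in the tissue where it spreads most. The SD of *Fabp4* was 0.93 in WT and 1.13 in KO livers, and 0.02 to 0.12 in the fat depots. Each within-tissue value rests on 8 arrays.

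**Figure D5:**
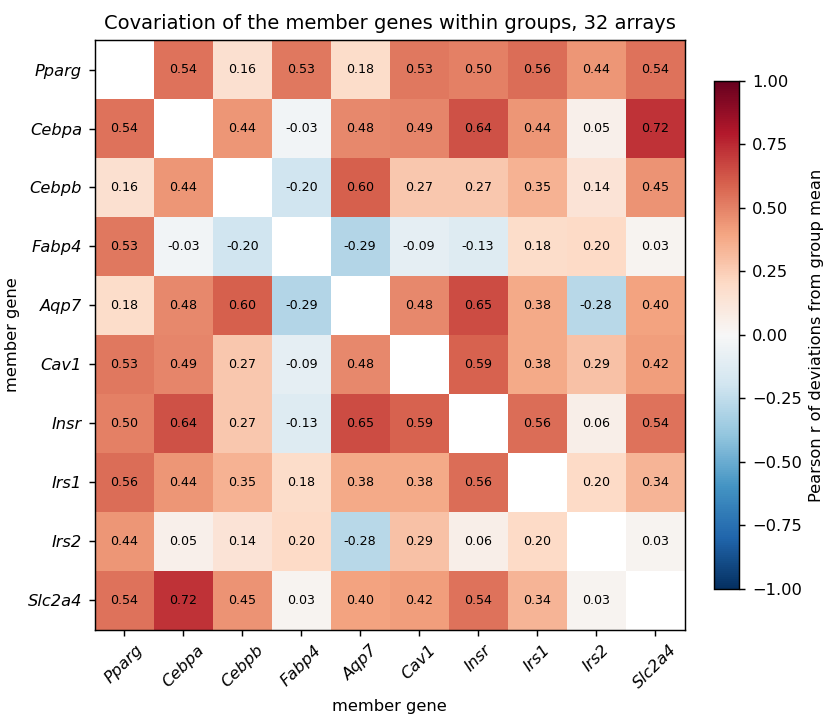
Pearson r between each pair of the 10 genes over 32 arrays, after the mean of each tissue and genotype was taken off. Both axes list the genes, and the colour scale runs from -1 (blue) to 1 (red). The highest value is that of Cebpa with Slc2a4, 0.72, and the lowest that of Fabp4 with Aqp7, -0.29.

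Among all genes, those most like *Pparg* by this measure were *Sdpr*, the caveola protein cavin-2 (r = 0.89), and *Pja2* (0.79), and those most like *Cebpa* were *Sh3glb2* (0.82) and *Amotl2* (0.81). For *Insr* they were *Akt2*, a kinase of its own pathway (0.87), and *Bckdhb*, of branched-chain amino acid breakdown (0.86). For *Slc2a4* they were *Coq7*, of ubiquinone synthesis (0.86), and *Pgm2* (0.77), and for *Fabp4* the lipid droplet gene *Cidec* (0.89) and *Gm10680* (0.89). The *Fabp4* values rest mainly on the liver arrays, where this gene spread most. *Irs1* was most like *March8* (0.76) and *Aox1* (0.76), and *Irs2* most like *Atl2* (0.76) and *Defb30* (0.72). The nearest to *Cebpb* were *Cdc42ep4* (0.77) and *Smad6* (0.73), to *Aqp7* *Sema6a* (0.78) and *Magi1* (0.76), and to *Cav1* *Prkaca* (0.8) and *Copz2* (0.8).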

How the data were processed

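Array signals were deposited by the authors on the log2 scale, as 1 table per tissue with 1 value for each gene and array, made from 100 ng of total RNA per array. The normalization, the summary of probes and the genome build are not given in the sources used here. Tables held 24646 genes each after 1 or 2 entries without a usable gene name were left out, and array medians differed by less than 0.1 within a tissue. No depth applies to arrays, and 4 mice per genotype limit the precision. KO and WT mice were compared within each table with limma (3.58.1, R 4.3.3) and Benjamini-Hochberg adjustment over all genes, and KO effects between tissues with limma on per-mouse-number differences. The labels do not say that a mouse number marks 1 animal across tissues. The p-values set the difference between genotypes against the spread between these samples. Single values were compared by exact permutation of 70 arrangements. Marker means average the log2 values of a list. Named genes were *Gpr146*, the members, the 2 genes most like each, and up to 3 genes per list with the smallest p among those that passed, or else 1. *Lep*, *Gyk*, *Tbc1d1*, *Grb2*, *Cidec* and *Adrb3* in liver, *Fabp5* among the target genes, *Lyz2* and *Trem2* were named after their values were seen. A list gene that this rule names in BAT is not reported here. The members and lists were chosen with earlier results of these data known. Statistics were tested on simulated data. Alternatives were other scalings, a filter on dim genes, other limma priors and weights, a replicate block, the methods' t-test, and arrays left out; covariates of marker genes and arrays left out for them were added after seeing the data. Figures were drawn with matplotlib 3.10.9 in Python 3.11.15.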

Additional observations from a re-analysis of the deposited data

Results flagged for a closer look

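In 4 of the 80 groups of 4 mice tested, 1 mouse lay far from the other 3 by Dixon's criterion, as many as the 4 that chance gives at 1 in 20. These were *Irs2* in WT mouse 3 of eWAT (4.77), *Cebpa* in KO mouse 2 of iWAT (8.82), *Pparg* in KO mouse 3 of BAT (9.29) and *Cebpa* in KO mouse 4 of BAT (9.54). KO mouse 2 of iWAT had a lymphocyte marker mean of 7.73, and the part of that signal in its *Cebpa* value was not tested.

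The effect of the KO differed between tissues, by limma on the difference itself, for 9 pairs of gene and tissues. Between eWAT and BAT the differences were 0.9 for *Pparg*, 0.87 for *Cebpa*, 0.85 for *Slc2a4*, 0.9 for *Insr* and 0.71 for *Irs1*. Between eWAT and liver they were 1.53 for *Pparg*, 1.03 for *Cebpa*, 0.91 for *Slc2a4* and 0.74 for *Irs1*. All 9 share the eWAT arrays, in which the macrophage marker mean was 8.37 to 8.62 in WT and 5.42 to 8.02 in KO mice. It was 4.1 to 4.56 and 3.87 to 4.38 in BAT, and the part of this signal in the differences was not tested.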

How the results depend on the processing

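Of 805 recomputed log2 changes and differences of the member genes, 782 kept their direction and 23 turned it, while 48 calls were lost and 15 gained. The share of all genes passing was not counted under the methods' t-test. Nor was it counted with an array or mouse number left out, with the replicate block or without pairing by mouse number. Of the counts of member genes past the threshold, that of eWAT (6) went to 0 under the methods' t-test with adjustment and 0 with the macrophage covariate, and ran from 3 to 6 with 1 array left out. The iWAT member count (0) went to 3 under the methods' t-test without adjustment, 1 with the lymphocyte covariate and 1 without the 4 lymphocyte-rich arrays, and ran from 0 to 2 with 1 array left out. The BAT member count (0) went to 2 under the unadjusted t-test. The liver member count (0) went to 2 under that test and to 1 (*Pparg*) without dim genes, and ran from 0 to 1 with 1 array left out. With 1 mouse number left out, the member count ran from 2 to 5 for eWAT against BAT, 2 to 6 for eWAT against liver and 0 to 2 for iWAT against liver. With the replicate block the member count was 5 in eWAT (*Fabp4* lost) and 5 for eWAT against liver, other counts being unchanged; samples with the same number did not deviate together in every pair (r from -0.38 to 0.67), so KO and WT mice were not taken as pairs. Values of different tissues were paired by number within a genotype; without that the member count was 4 for eWAT against BAT and 4 for eWAT against liver, and 0 for the other pairs of tissues.

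Changes that turned sign were small and had not passed. They were *Cebpb* in eWAT (0.06 after quantile normalization, 0.18 with the macrophage covariate), *Aqp7* (-0.04) and *Cav1* (-0.18) with that covariate, and *Cav1* with 1 array left out (-0.04 to 0.17). In iWAT they were *Fabp4* (-0.04, quantile), *Irs2* (-0.02 with medians made equal, -0.24 without the lymphocyte-rich arrays, -0.08 to 0.14 with 1 array left out), *Pparg* (-0.15 without those arrays, -0.03 to 0.27 with 1 left out) and *Insr* (-0.12 without those arrays). In BAT *Slc2a4* ran from -0.03 to 0.17 with 1 array left out. In liver they were *Slc2a4* (0 after quantile normalization, -0.03 to 0.11 with 1 left out) and *Aqp7* (-0.02 with medians made equal, -0.01 with array weights, -0.05 to 0.05 with 1 left out). The cause of these turns was not tested. Signal limits *Slc2a4* and *Cav1* in liver, which the filter on dim genes removed.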
